A study of Mus musculus with 9 samples.

Results

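Klf2, Klf4, Klf6, Klf9 and Klf10, 5 zinc finger transcription factors of the Krüppel-like family, and Nos3, the nitric oxide synthase of endothelial cells, were described across RNA libraries of mouse cerebral cortex. The genes were taken by symbol, and all 6 were among the 32531 gene names in each of the 9 libraries. All libraries came from adult control mice, given no treatment, of the Abcb1a-TRAP line ES3026. These mice carry Abcb1a-EGFP/Rpl10a, a ribosomal protein joined to a green fluorescent protein and named for Abcb1a, which encodes an efflux pump of brain capillaries, so every group is of this 1 line. In TRAP (translating ribosome affinity purification), antibodies against the fluorescent protein pull tagged ribosomes out of a tissue homogenate together with the mRNA they carry. There were 3 groups of 3 libraries: immunoprecipitated (IP) RNA extracted by an investigator with the initials ES, IP RNA extracted by an investigator with the initials JL, and input, the total RNA, extracted by JL. Input of ES was not analysed here. Nothing in the labels tells whether a group's libraries were made from different mice, so the p-values cover only the variation among these libraries, which may be technical.

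Laminar flow of blood along a vessel wall is sensed by endothelial cells through junction proteins, channels and receptors. In the best known route, the kinases MEKK3 and ERK5 then activate MEF2 factors, which switch on KLF2 and KLF4, and the cerebral cavernous malformation (CCM) proteins hold MEKK3 in check. KLF2 and KLF4 raise the gene of endothelial nitric oxide synthase and anticoagulant genes such as thrombomodulin, and lower endothelin and adhesion molecules. KLF6 is induced by vascular injury, KLF9 responds to glucocorticoids and thyroid hormone and is abundant in neurons, and KLF10 was found as an early response gene of TGF-beta. No change of flow is named for these mice, so the genes are described here without a comparison of flow.

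Total gene counts ran from 41518263 to 46199700 in ES IP, 31987470 to 37813545 in JL IP and 42723147 to 46598478 in input. Levels are given as CPM, gene counts scaled to a common library size over the 9 libraries (TMM-normalised CPM), and 3 counts corresponded to 0.0644 to 0.0938 CPM. Over 18 endothelial markers the summed level was 7813 to 8198 CPM in JL IP, 871 to 1242 in ES IP and 33.7 to 43.2 in input. Over 14 neuronal markers it was 2264 to 3025 CPM in JL IP, 19868 to 22250 in ES IP and 17509 to 18258 in input. So neuronal markers far exceeded endothelial ones in both ES IP and input. The labels nevertheless give endothelial cells as the cell type of all 9 libraries. Abcb1a itself stood at 458 ± 20.8 CPM in JL IP, 46.5 ± 8.49 in ES IP and 2.11 ± 0.478 in input (mean ± SD, n = 3).

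Klf2 and Klf4 were among the RNAs most enriched with the tagged ribosomes. Klf2 lies on chromosome 8 at 72319033 to 72321656 (mm10, plus strand, 3 exons). It stood at 483, 465 and 415 CPM in JL IP libraries 1 to 3 and at 1.67, 1.37 and 0.893 CPM in inputs 1 to 3, from 87, 70 and 42 counts. Every IP lay far above every input, and the fitted log2 fold change of JL IP over input was 8.42 ± 0.19 (± standard error; adjusted p = 3.74e-09, edgeR's quasi-likelihood test), the 44th highest of 17357 genes tested. Klf4 lies on chromosome 4 at 55527143 to 55532466 (minus strand, 5 exons) and stood at 510, 405 and 386 CPM in JL IP and 2.92, 2.78 and 2.02 CPM in input. The groups again did not overlap, with a log2 fold change of 7.39 ± 0.18 (adjusted p = 5.52e-09), the 135th highest. Both fell within the range of the 18 endothelial markers, which were all higher in JL IP by log2 fold changes of 5.80 to 9.49 with a median of 7.95. In bulk RNA such as this, fewer cells of a type and less RNA per cell cannot be told apart.

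The upstream sequences of Klf2, Klf4 and Klf9 are shown because the first pair rose together in the IPs while Klf9, described further on, was also high in input. They come from RefSeq (GRCm38.p6, the mm10 assembly), run 5′ to 3′ on the strand of each gene and end at the base before its first annotated start. Capitals mark the consensus of MEF2, CACCC (the core read by Krüppel-like factors) and TGACG (the core read by CREB and ATF factors), each searched on both strands.
Klf2 (chr8:72318812-72319032, plus strand): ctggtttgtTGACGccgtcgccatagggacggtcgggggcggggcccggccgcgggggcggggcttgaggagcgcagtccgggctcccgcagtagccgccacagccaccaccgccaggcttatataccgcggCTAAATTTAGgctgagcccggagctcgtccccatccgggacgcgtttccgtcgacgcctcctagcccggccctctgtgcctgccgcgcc
Klf4 (chr4:55532476-55532725, minus strand): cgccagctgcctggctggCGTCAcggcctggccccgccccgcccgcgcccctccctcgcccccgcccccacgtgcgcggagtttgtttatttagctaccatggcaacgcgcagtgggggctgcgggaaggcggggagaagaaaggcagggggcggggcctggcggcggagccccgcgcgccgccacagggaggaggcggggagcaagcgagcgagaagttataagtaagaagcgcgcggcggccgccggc
Klf9 (chr19:23140976-23141225, plus strand): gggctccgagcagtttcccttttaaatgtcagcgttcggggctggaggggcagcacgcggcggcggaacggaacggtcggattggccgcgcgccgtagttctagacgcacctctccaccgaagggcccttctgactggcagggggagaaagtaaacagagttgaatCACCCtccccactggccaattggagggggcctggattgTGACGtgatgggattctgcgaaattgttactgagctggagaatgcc

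The 250 bases before the RefSeq start were searched in the 4 of 6 genes in the table used, Klf2, Klf4, Klf6 and Klf9. Klf2 held the MEF2 consensus as CTAAATTTAG at -118 to -109, counted from -1 at the base before the RefSeq start. This consensus was found in 167 of 32851 promoters of the same length (0.508%), and not in the windows of Klf4, Klf6 and Klf9. TGACG was in Klf2 (-241 to -237), Klf4 (-232 to -228, on the other strand) and Klf9 (-46 to -42), as in 17.8% of all promoters. CACCC was in Klf9 (-84 to -80) and, on the other strand and downstream of the printed stretch, in Klf2 (-19 to -15), as in 52.0% of promoters. GGGCGG, the core of the Sp1 box, occurred 4 times in Klf4, where 1 pair shared a base, 2 times in Klf2 and 1 time in Klf6, and was in 32.7% of promoters. CCAAT occurred 4 times in Klf6 and 3 times in Klf9, where 1 pair overlapped, and was in 33.8%. None of the 4 windows held the CArG box of serum response factor, which was in 1.47%. The printed stretches had a GC content of 71.5% in Klf2, 74.0% in Klf4 and 59.6% in Klf9, beside a median of 52.4% over all promoters. These matches describe letters and do not show that a factor binds.

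Nos3, which makes the vasodilator nitric oxide from arginine, was enriched less than the endothelial markers. It lies on chromosome 5 at 24364810 to 24384474 (plus strand, 26 exons) and stood at 46.4, 34.8 and 39.9 CPM in JL IP and at 1.33, 1.55 and 0.936 CPM in input. All 3 IPs were above all 3 inputs, and the log2 fold change was 4.98 ± 0.21 (adjusted p = 1.07e-07, edgeR), below the lowest of the 18 markers. The exons of Nos3 share 294 bases with Atg9b and 1040 bases with Gm15587, both on the opposite strand. Atg9b is among the counted gene names and Gm15587 is not. The strand setting of the counting is not given, so reads there cannot be told apart, and the enrichment of Nos3 is uncertain to that extent. The share of reads that fit more than 1 gene and were left uncounted was 2.04 to 2.13% in JL IP and 10.3 to 11.3% in input, and its part in the Nos3 counts was not tested. Atg9b, an autophagy gene, stood at 2.32 ± 1.06 CPM in JL IP and 3.51 ± 0.311 in input (adjusted p = 0.184, edgeR), and passed as lower without JL IP library 1 (-0.92, adjusted p = 0.0470).

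Klf6, Klf9 and Klf10 were plainly present in total cortex RNA, unlike the other 3 genes. Klf6 (chromosome 13, 5861482 to 5870394, plus strand) stood at 551, 575 and 407 CPM in JL IP against 85.0, 84.7 and 76.4 in input. These groups were apart, with a log2 fold change of 2.63 ± 0.13 (adjusted p = 3.12e-07, edgeR). Klf9 (chromosome 19, 23141226 to 23168134, plus strand) stood at 287, 263 and 262 CPM against 145, 139 and 152. Its groups were also apart, by a log2 fold change of 0.89 ± 0.07 (adjusted p = 5.92e-06). Klf10 (chromosome 15, 38291463 to 38300706, minus strand) stood at 73.1, 64.0 and 74.3 CPM against 44.1, 57.6 and 58.2. Its lowest IP was only slightly above its highest inputs, and its log2 fold change was 0.40 ± 0.12 (adjusted p = 0.0168).

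JL IP and input libraries of the same number carry the same lane number in their file names, and within these pairs the log2 ratio of IP to input was 8.17, 8.41 and 8.86 for Klf2, 7.45, 7.19 and 7.58 for Klf4, and 5.13, 4.49 and 5.42 for Nos3. All were positive also for Klf6 (2.41 to 2.76), Klf9 (0.79 to 0.98) and Klf10 (0.73, 0.15 and 0.35). The Klf10 result was the least firm of the 6. With library totals alone in place of TMM scaling its log2 fold change was 0.14 (adjusted p = 0.324, edgeR), with upper quartile scaling 0.15 (adjusted p = 0.296), and without input library 1 it was 0.27 (adjusted p = 0.0523). The first 2 of these settings moved the median of all genes by -0.26 and -0.25, and relative to that median Klf10 stood at 0.49 under all 3 scalings. A change of scaling moves all genes by nearly the same amount. That equal distance was therefore fixed in advance and is no test of whether Klf10 was enriched.

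All 6 genes were thus higher in JL IP, where 36.7% of all genes tested were higher, 37.4% lower and 74.1% changed in either direction. Of the genes called, 49.6% were higher, and 41.6% with library totals alone or 41.8% with upper quartile scaling, under which 5 of the 6 were higher. The groups did not overlap for any of the 6, as for 80.8% of all genes, with JL IP above input for 38.7%. The median log2 fold change of the 6 was 3.81, beside -0.09 over all genes. Markers of other vessel wall cells differed among themselves. Over 7 smooth muscle markers the summed level was 200 to 226 CPM in JL IP and 26.7 to 29.5 in input, with 3 higher and 2 lower, and over 6 fibroblast markers it was 104 to 171 against 49.8 to 52.0, with 4 higher and 2 lower. Over 8 pericyte markers it was 24.7 to 52.8 against 35.5 to 39.3, overlapping, with 1 higher and 5 lower. None of these markers was at 0 in either group. Their part in the Klf levels was not tested.

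**Figure D1:**
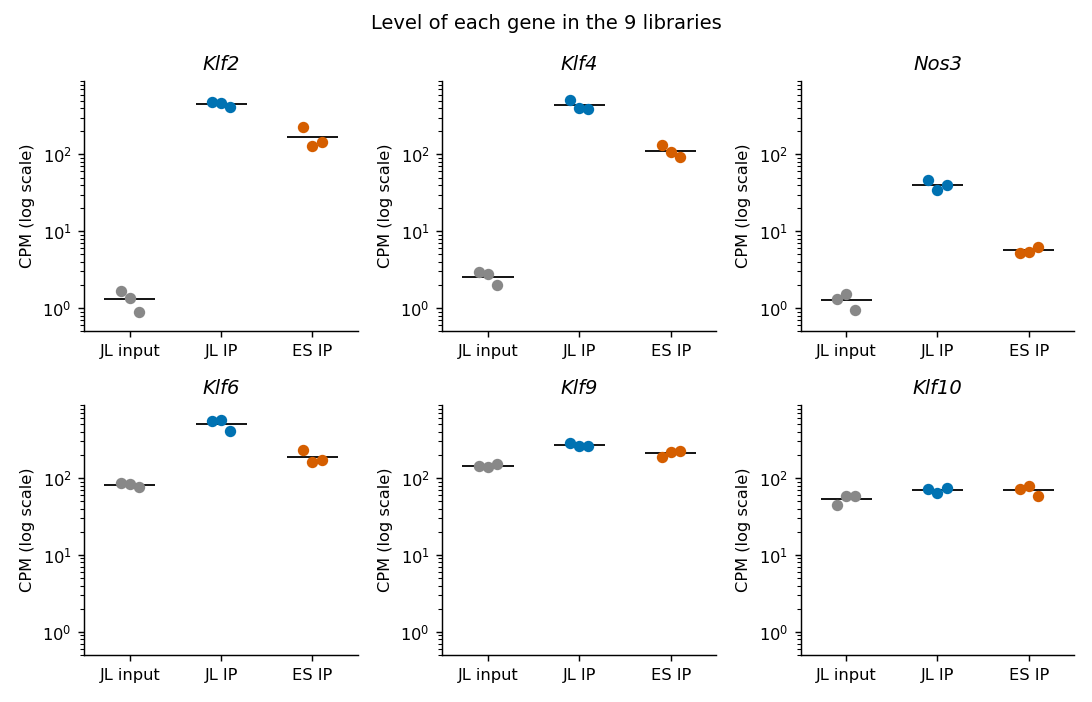
Level of each gene (CPM, log axis) in the 3 libraries of JL input, JL IP and ES IP, with points for libraries and a line for the mean of a group. Klf2, Klf4 and Nos3 lie at 0.893 to 2.92 CPM in input, while Klf6, Klf9 and Klf10 lie at 44.1 CPM or more in every library.

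The ES IPs held less of Klf2, Klf4, Klf6 and Nos3 than JL IP. Both are IP RNA, but their summed endothelial and neuronal markers were far apart, as given above. Klf2 stood at 229, 128 and 147 CPM in ES IP libraries 1 to 3, all below JL IP, with a log2 fold change of ES over JL IP of -1.43 ± 0.23 (adjusted p = 0.000272, edgeR). Klf4 stood at 132, 107 and 91.4 CPM, also below every JL IP, with a log2 fold change of -1.97 ± 0.20 (adjusted p = 9.92e-06). ES library 1 was the highest of its group for Klf2, Klf4 and Klf6, and it also had the highest summed endothelial markers of the 3. It differed most from the other 2 over all genes (chi-square per degree of freedom 190.5 and 230.7, against 72.6 between those), and the ribosomal RNA precursor Rn45s took 12.03% of its gene counts, against 8.14 and 6.04%. Rn45s took 15.7 to 17.9% in JL IP and 4.83 to 5.29% in input, and its part in these results was not tested. Without ES library 1 the differences of Klf2, Klf4 and Klf6 were -1.73, -2.13 and -1.62. Klf6 stood at 231, 162 and 170 CPM, apart from JL IP by a log2 fold change of -1.44 ± 0.21 (adjusted p = 0.000136). Nos3 was lower by the most, at 5.25, 5.41 and 6.30 CPM, with a log2 fold change of -2.83 ± 0.21 (adjusted p = 1.39e-06).

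Klf9 and Klf10 did not pass the test between investigators. Klf9 stood at 189, 217 and 227 CPM in ES IP, all below JL IP, with a log2 fold change of -0.36 ± 0.16 (adjusted p = 0.0706, edgeR). It passed when all 9 libraries were fitted together (-0.44, adjusted p = 0.00534). Klf10 stood at 71.9, 79.4 and 58.4 CPM, overlapping JL IP, with a log2 fold change of -0.01 ± 0.17 (adjusted p = 0.969). Its sign turned under 4 of 13 alternatives, none of which called it.

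So 4 of the 6 genes were lower in ES IP, where 28.2% of all genes were lower, 29.7% higher and 57.9% changed in either direction. For 5 the groups did not overlap, as for 65.8% of all genes, with ES below JL for 32.1%. The median of the 6 was -1.44, beside 0.03 over all genes. The 18 endothelial markers were all lower in ES IP, by log2 fold changes of -3.43 to -1.96 with a median of -3.01, and the 14 neuronal markers were all higher with a median of 2.92. The differences of Klf2 and Klf6 were smaller in size than that of any endothelial marker, Klf4 lay at the edge of their range and Nos3 lay inside it. The ES libraries all carry 1 lane number in their file names, which none of the JL libraries has, so investigator and lane cannot be told apart. Summed smooth muscle markers were 54.8 to 63.7 CPM in ES IP against 200 to 226 in JL IP, with 3 of 6 tested lower and 1 higher, and fibroblast markers 34.8 to 51.7 against 104 to 171, with 4 of 6 lower and 1 higher. Pericyte markers overlapped, at 25.7 to 29.4 against 24.7 to 52.8, with 3 higher and 1 lower. All 8 oligodendrocyte markers were higher in ES IP, at 1066 to 1289 against 313 to 461 CPM. The part of any of these cell types in the differences was not tested.

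Against the JL inputs, the only inputs used here, 5 of the 6 genes were higher in ES IP, where 26.9% of all genes were higher, 25.3% lower and 52.2% changed in either direction. Of the genes called, 51.5% were higher, and 40.7% with upper quartile scaling. The groups did not overlap for any of the 6, as for 64.6% of all genes, with ES IP above input for 35.5%. Klf2 had a log2 fold change of 6.91 ± 0.34 (adjusted p = 5.86e-06, edgeR) and Klf4 of 5.33 ± 0.22 (adjusted p = 3.22e-06). Nos3 was higher by 2.07 ± 0.23 (adjusted p = 0.000212) and Klf6 by 1.11 ± 0.16 (adjusted p = 0.000847). Klf9 was higher by 0.45 ± 0.12 (adjusted p = 0.0124), a call lost with upper quartile scaling (0.30, adjusted p = 0.0716) and without input library 1 (0.44, adjusted p = 0.0675) or 2 (0.42, adjusted p = 0.0769). Klf10 stood at 0.31 ± 0.16 (adjusted p = 0.141) and passed only without ES library 3 (0.45, adjusted p = 0.0440). The 3 comparisons share libraries and are not independent of each other. Investigator and fraction cannot be told apart here.

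**Figure D2:**
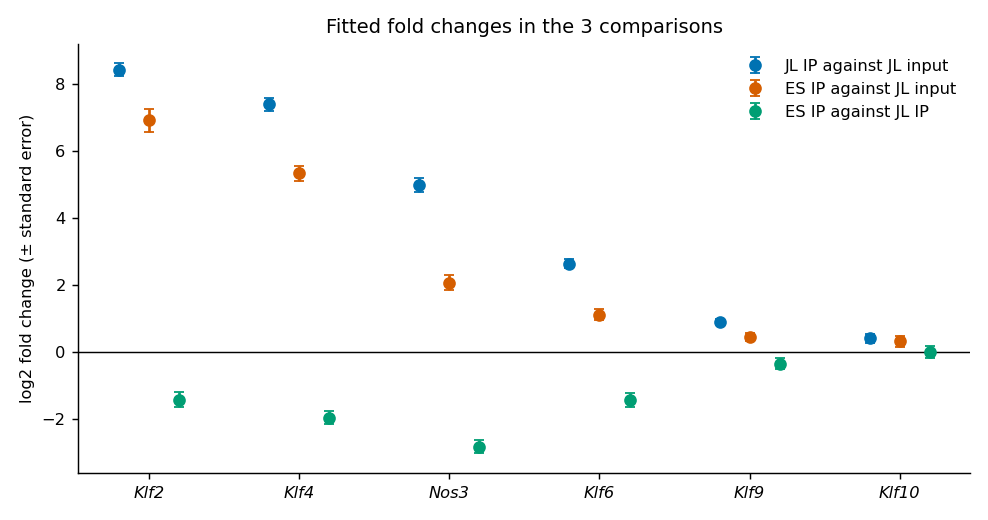
Fitted log2 fold change of each gene in the 3 comparisons, with bars of 1 standard error, from 3 libraries against 3. Klf2 and Klf4 are highest against input for both investigators, and Nos3 is lowest in ES IP against JL IP at -2.83.

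Set against the endothelial RNA in each library, the transcription factors and Nos3 differed. Per 1000 CPM of summed endothelial markers, Klf2 reached 185, 127 and 169 CPM in ES IP, 59.1, 56.7 and 53.2 in JL IP and 41.8, 31.7 and 26.5 in input. The ES libraries lay above all others, by a ratio of 2.84 between the ES and JL means. Klf4 reached 106, 107 and 105 CPM in ES IP, 62.5, 49.4 and 49.4 in JL IP and 73.1, 64.4 and 59.9 in input. The ES libraries were again above all others, by a ratio of 1.97 to JL IP, and JL IP and inputs overlapped. Nos3 reached 4.23, 5.39 and 7.23 CPM in ES IP and 5.67, 4.25 and 5.11 in JL IP. Those ranges overlapped, with a ratio of 1.12, while input stood higher, at 33.2, 35.8 and 27.7. Klf6 had a ratio of 2.86 between ES and JL IPs, Klf9 of 6.24 and Klf10 of 7.77, with input higher still at 2118 ± 153, 3779 ± 654 and 1387 ± 315 CPM per 1000. The marker sum used as divisor averaged 1039 CPM in ES IP and 8061 in JL IP. Klf10 itself stood at 69.9 and 70.5 CPM in these groups, and Klf9 at 211 and 271. A high ratio therefore need not mean more RNA of the gene. With 3 libraries against 3 an exact permutation test cannot give a p below 0.10, so these ratios are descriptions.

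**Figure D3:**
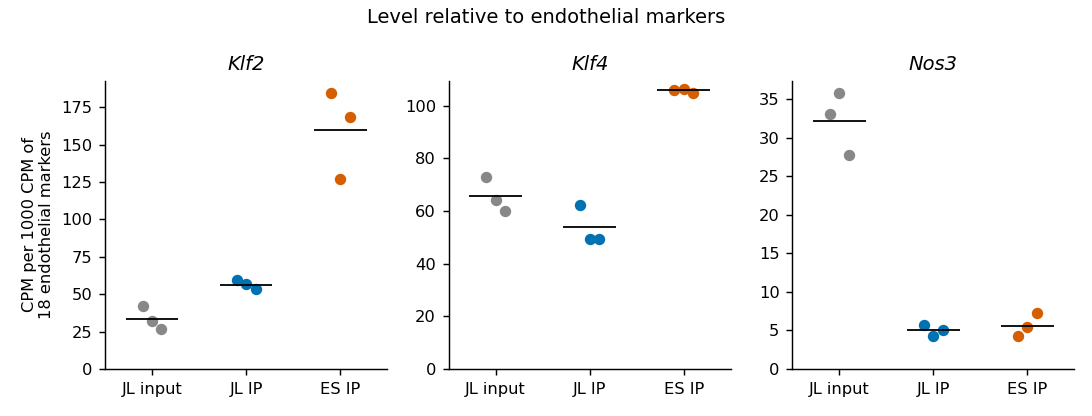
CPM of Klf2, Klf4 and Nos3 per 1000 CPM summed over 18 endothelial markers, by library, with a line for the mean of each group. For Klf2 and Klf4 the ES IP libraries lie above all others, and for Nos3 the input libraries do, at 27.7 or more.

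Among the Klf genes, Klf2 had the largest share in both IP groups and Klf9 in input. For this, CPM were divided by the exon length of each of 17 Klf genes and given as a share of their sum. Klf2 and Klf4 together made up 54.4 ± 1.22% in JL IP, 37.5 ± 7.74% in ES IP and 1.31 ± 0.327% in input. Klf2 ranked first in both IP groups, with 34.5 ± 0.484% in JL IP and 26.7 ± 6.70% in ES IP, and 14th in input. In ES library 1 the share of Klf2 was 34.4%, beside 22.0% and 23.8%. Klf9 ranked first in input, with 25.4 ± 1.08%, and held 7.89 ± 0.444% in JL IP and 13.1 ± 1.95% in ES IP. Klf6 kept a share of 16.2 ± 1.91% in JL IP, 12.6 ± 1.69% in ES IP and 15.8 ± 1.10% in input. The ranges of all 3 groups overlapped, that of ES IP only through library 1 (14.6%). The 5 Klf genes described here together held 80.8 ± 1.16% in JL IP and 53.3 ± 0.183% in input.

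**Figure D4:**
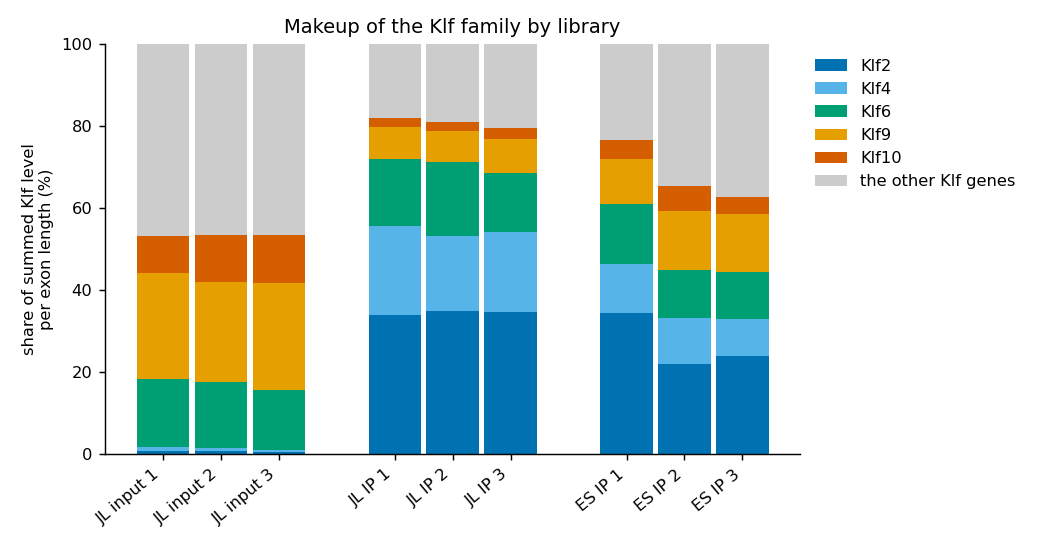
Share of each Klf gene in the summed level of 17 Klf genes per exon length (%), 1 bar per library. Klf2 and Klf4 fill 53.2 to 55.6% of the JL IP bars, 32.8 to 46.4% of the ES IP bars and under 1.60% of the input bars.

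The same scale, CPM per kilobase of exon, gives the order of the 6 genes within a group. In JL IP the order was Klf2 (246 ± 19.0), Klf4 (142 ± 22.0), Klf6 (116 ± 20.7), Klf9 (56.2 ± 2.96), Klf10 (16.9 ± 1.35) and Nos3 (9.77 ± 1.40), and of these neighbours only Klf4 and Klf6 had overlapping ranges. In ES IP Klf2 (90.9 ± 29.2) led, Klf9 (43.8 ± 4.10), Klf6 (42.8 ± 8.64) and Klf4 (36.1 ± 6.68) overlapped, and Klf10 (16.7 ± 2.54) and Nos3 (1.37 ± 0.137) followed. In input the order was Klf9 (30.2 ± 1.32), Klf6 (18.7 ± 1.11), Klf10 (12.8 ± 1.91), Klf4 (0.844 ± 0.159), Klf2 (0.710 ± 0.213) and Nos3 (0.307 ± 0.0749), with Klf4 and Klf2 overlapping. With the longest transcript as the length, Klf6 and Klf10 overlapped in input as well.

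The genes with the profile most like that of each member over the 9 libraries were found by the root mean square difference of centred log2 CPM among 10667 genes. Closest to Klf2 were Ctla2b (0.22), Hrct1 (0.36) and Ly6a (0.37), and Klf4 stood at 0.67 from it. Ly6a encodes a surface antigen of mouse endothelium and blood stem cells. Closest to Klf4 were Cdkn2b (0.19), an inhibitor of the cell cycle, Grap (0.23), an adaptor protein, and Ramp2 (0.24), which carries the adrenomedullin receptor to the surface. Closest to Nos3 were Ddx58 (0.14), the RNA sensor RIG-I, Nkd1 (0.21), a Wnt antagonist, and Fbxl7 (0.22). Klf6 had Rras2 (0.09), Foxo4 (0.11) and Sri (0.13), Klf9 had Taok2 (0.05), Cdv3 (0.05) and Brd2 (0.08), and Klf10 had G6pdx (0.13), Hnrnpl (0.13) and Zfp850 (0.14). An average of 2 counts was added before the logarithm, which shrinks the differences of genes with few counts. In inputs 1 to 3 Cdkn2b held 8, 9 and 7 counts, Hrct1 4, 5 and 2, and Ctla2b 14, 17 and 7, which limits their distances.

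Upstream of Klf2 and Klf4, the genes that sense flow were mostly higher in JL IP. Of 16 sensors, 4 of them also among the endothelial markers, 13 were higher and 1 lower (median log2 fold change 4.22). So 87.5% changed, beside 74.1% of all genes. Pecam1, a junction protein of the flow sensing complex, was highest at 8.49 ± 0.20 (adjusted p = 3.99e-09, edgeR), and Gnaq, a G protein subunit, lowest at -0.62 ± 0.07. Between investigators, 13 of the 16 were lower in ES than in JL IP and 1 higher, with a median of -2.19, or 87.5% beside 57.9% of all genes. The MEKK3, ERK5 and MEF2 cascade was mixed, with 7 of 11 tested genes higher in JL IP, 2 lower and a median of 0.39. Its share that changed, 81.8%, was near the 74.1% of all genes. With library totals alone 5 were higher and 3 lower. Hdac7, a repressor of MEF2 factors in endothelium, was highest at 4.62 ± 0.10, and Mef2c, which cortical neurons also express, lowest at -1.70 ± 0.06. Map3k3, the gene of MEKK3, and Mapk7, the gene of ERK5, were named after their values were seen. Map3k3 stood at 129 ± 15.6 CPM against 8.59 ± 0.669 in input (log2 fold change 3.90 ± 0.12), and Mapk7 had a log2 fold change of 2.05 ± 0.12. In ES IP 4 of 12 genes of the cascade were higher than in JL IP, Mef2c at 2.44 ± 0.20 among them, and 5 lower. That is 75% of them, beside 57.9% of all genes.

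Of 9 genes of the CCM complex, which restrains MEKK3, 6 were higher in JL IP and 1 lower, with a median of 1.11, or 5 and 3 with library totals alone. The 77.8% that changed with TMM scaling was near the 74.1% of all genes. Ccm2l, a relative of CCM2 found in endothelium, was highest at 6.66 ± 0.36 (7.41 without input library 2), and the kinase Stk26 lowest at -2.41 ± 0.34. The transmembrane partner Heg1, named after its value was seen, stood at 4.76 ± 0.09. Of the 9, 2 were higher in ES than in JL IP and 4 lower, or 66.7% beside 57.9% of all genes.

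Downstream, genes that flow induces and genes that flow represses were both mostly higher in JL IP. Of 13 flow-induced genes, 11 were higher and none lower, with a median of 2.53, and 1 was lower with library totals alone. Tek, the angiopoietin receptor and also 1 of the endothelial markers, was highest at 7.84 ± 0.18, and Nppc, a natriuretic peptide, had the lowest value, -1.66 ± 0.73 (adjusted p = 0.0682, edgeR), which passed under 7 of 13 alternatives and was -3.35 without JL IP library 1 (adjusted p = 3.76e-05). Thbd, thrombomodulin, which was named after its values were seen, stood at 201 ± 26.3 CPM in JL IP, 31.0 ± 3.42 in ES IP and 9.61 ± 1.96 in input. Of 11 flow-repressed genes, 9 were tested and all 9 were higher, with a median of 3.07, from Edn1, endothelin, at 6.98 ± 0.21 to Ace, which makes angiotensin II, at 1.21 ± 0.18. Between investigators, 10 of 12 flow-induced genes were lower in ES IP with a median of -1.51, and 8 of 9 flow-repressed genes with a median of -2.33. The shares that changed were 84.6% and 100% in JL IP against input, beside 74.1% of all genes. Between the IPs they were 83.3% and 88.9%, beside 57.9%.

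Genes of the other nitric oxide synthases and of the regulation of synthases were mostly higher in JL IP. Of 23 genes tested that make or regulate nitric oxide, 16 were higher, 5 lower and 2 did not pass, with a median of 0.68, and 13 were higher with library totals alone. With TMM scaling 91.3% changed, beside 74.1% of all genes. Nostrin, which binds the endothelial synthase and moves it from the membrane, was highest at 7.68 ± 0.13 (227 against 1.10 CPM), and Arg2, an arginase that uses up the same substrate, lowest at -2.19 ± 0.46 (-2.88 without JL IP library 2). Cav1, caveolin, and Gch1, which starts synthesis of the cofactor tetrahydrobiopterin, were named after their values were seen, at 6.59 ± 0.12 and 6.23 ± 0.14. The other synthases were also named in that way. Nos2, the inducible synthase, stood at 22.2, 14.2 and 29.8 CPM in JL IP and at 0.0961, 0.0587 and 0.170 CPM in input, where its libraries held 5, 3 and 8 counts. Its log2 fold change was 7.65 ± 0.43 (adjusted p = 5.68e-07, edgeR), with the size limited by those few input counts, and it stood at 1.86 ± 0.729 CPM in ES IP. Over 9 microglial markers, a cell type known for Nos2, the summed level was 25.7 to 29.1 CPM in JL IP and 82.5 to 88.4 in input, with none higher in JL IP and none at 0. The part of microglia or any other cell type in the Nos2 level was not tested. Nos1, the neuronal synthase, stood at 16.0 ± 0.875 CPM in JL IP, 21.3 ± 6.03 in ES IP and 11.5 ± 0.904 in input (JL IP over input 0.48 ± 0.13, adjusted p = 0.00986), a call lost with library totals alone (0.22, adjusted p = 0.167), with upper quartile scaling (0.23, adjusted p = 0.150) and without input library 3 (0.43, adjusted p = 0.0550).

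Lists tied to the other Klf genes were described in the same way. Of 11 genes of the glucocorticoid and thyroid hormone response, to which Klf9 belongs, 6 were higher in JL IP and 5 lower, with a median of 0.27, or 4 and 5 with library totals alone. All 11 changed with TMM scaling, beside 74.1% of all genes. Tsc22d3, a glucocorticoid-induced leucine zipper protein, was highest at 3.64 ± 0.08, and Dio2, the deiodinase that makes active thyroid hormone and is expressed in astrocytes, lowest at -2.84 ± 0.11. Of 12 genes of TGF-beta signalling, which induces Klf10, all 12 were higher in JL IP, with a median of 1.50, from the receptor Tgfbr2 at 4.84 ± 0.11 to the repressor Skil at 0.29 ± 0.10. That count rests on the TMM scaling, since 8 of the 12 were higher with library totals alone and 9 with upper quartile scaling, and Skil was then not called (0.03 and 0.04). It was also not called with all 9 libraries in 1 fit or without any 1 of the inputs (adjusted p = 0.0583 to 0.0736, edgeR). Over all genes 36.7% were higher. Of these 12, 8 were lower in ES than in JL IP and none higher, while 28.2% of all genes were lower.

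Immediate early genes, which cells switch on within minutes and among which Klf2, Klf4, Klf6 and Klf10 are often counted, were described beside the Klf genes. Of 23 tested, which leave out the Klf genes, 14 were higher in JL IP than in input and 7 lower, with a median of 0.82. That is 91.3% of them, beside 74.1% of all genes. With library totals alone or upper quartile scaling 13 were higher and 8 lower. Zfp36, which speeds decay of inflammatory mRNAs, was highest at 5.92 ± 0.13, and Egr4, a zinc finger factor of active neurons, lowest at -2.44 ± 0.17. In ES IP 22 of 23 were higher than in input and none lower, with a median of 1.38, while 26.9% of all genes were higher. Between ES and JL IPs 9 were higher in ES and 5 lower, so 60.9% changed, near the 57.9% of all genes, with a median of 0.38. Fos and Junb, named after their values were seen, were higher in ES by 2.65 ± 0.45 (adjusted p = 0.000456, edgeR) and 1.82 ± 0.26 (adjusted p = 0.000139). Fos was uneven in JL IP, at 21.7, 8.21 and 4.42 CPM, and without JL IP library 1 its difference was 3.50 (adjusted p = 2.10e-05). Zfp36 was lower in ES, with a log2 fold change of -1.89 ± 0.19. The part of this in the ratio of Klf2 and Klf4 to endothelial markers was not tested.

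**Figure D5:**
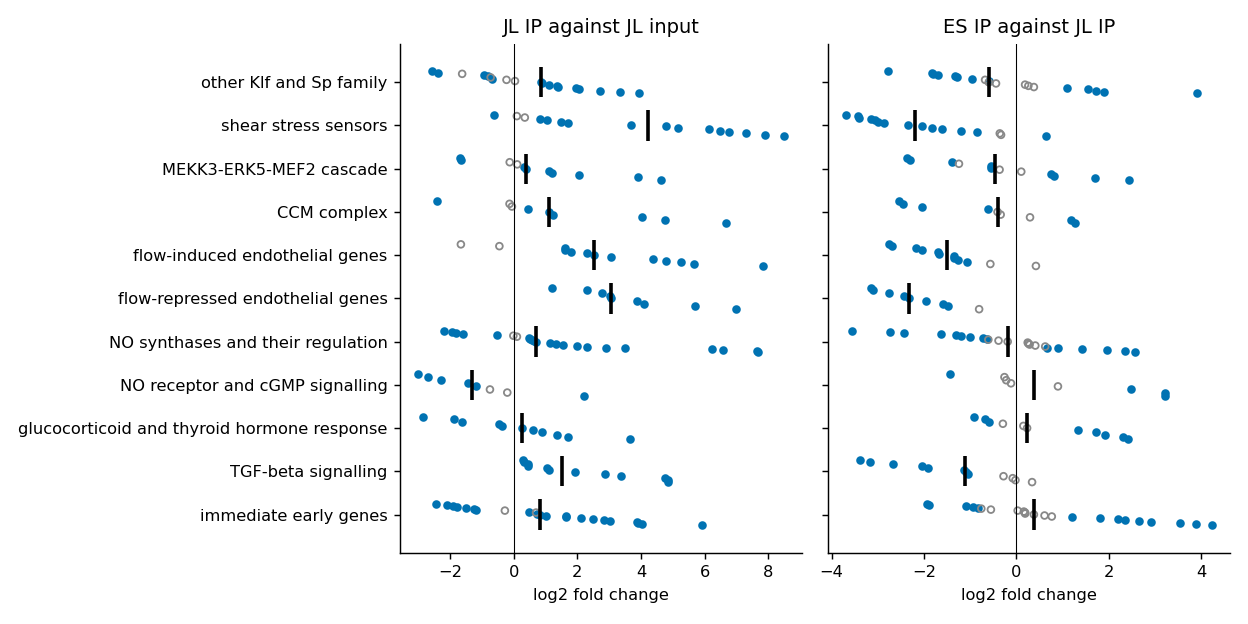
Log2 fold change of each tested gene in 11 lists, for JL IP against JL input and ES IP against JL IP, with filled points for adjusted p under 0.05, open points for the others and a bar for the median. Flow-induced and flow-repressed genes lie mostly above 0 on the left, with medians of 2.53 and 3.07, and mostly below 0 on the right.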

How the data were processed

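RNA of mouse cortex was sequenced in 9 libraries. The authors aligned reads with STAR 2.0.0e to mm10 and counted them per gene with HTSeq, per the submitters' processing notes. The deposited values are raw read counts. The annotation, strand setting and filters (not given in the sources used here) are unknown. HTSeq's summary lines and 1 line of unknown genes, with 0 to 3 counts, were dropped. Of reads in genes, in no feature or ambiguous, 17.3 to 24.4% had no feature and 2.04 to 11.3% were ambiguous. No replicate files agreed within sampling noise (chi-square per degree of freedom of at least 7.33). JL IP and input of 1 number share a lane number, so the replicate block, an alternative, also stands for the lane (correlation of their deviations 0.05, 0.03 and 0.05).

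The quasi-likelihood test of edgeR 4.0.16 (R 4.3.3) was run on these counts after filterByExpr and TMM (estimateDisp, glmQLFit, glmQLFTest), each fit holding the 2 groups compared, with Benjamini-Hochberg adjustment over all genes tested and a threshold of 0.05. Standard errors are the log2 fold change over the square root of F. The procedure was run on simulated counts in which few genes changed, equally many up and down. It therefore cannot test the scaling where most genes change, as in these comparisons. Positions and exon lengths come from GENCODE M21. Members and lists were chosen with earlier results of these data known. Named genes were the members, genes overlapping them, the highest and lowest of each list in JL IP against input, family genes of at least 20 CPM and the 3 nearest profiles per member (mean of at least 5 CPM); others are said to be named after their values were seen. Alternatives were limma-voom 3.58.1, DESeq2 1.42.0, other scalings, no filter, all libraries in 1 fit, a replicate block and leaving out each library.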

Additional observations from a re-analysis of the deposited data

How the results depend on the processing

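Klf2, Klf4, Klf6 and Nos3 kept their direction and their side of the threshold in all 3 comparisons under the 13 alternatives each, with log2 fold changes of JL IP over input from 8.16 to 8.63, 7.12 to 7.48, 2.37 to 2.78 and 4.72 to 5.14. Klf9 did so for JL IP over input (0.63 to 0.93). The calls of Klf9 and Klf10 that changed stand beside their values, and the cause was not tested. The difference of Klf10 between ES and JL IPs turned sign with library totals alone (0.052) and, over the fits without 1 library, ran from -0.095 to 0.12, positive without ES library 3 (0.12) and without JL IP library 1 (0.01) or 3 (0.03). With the longest transcript as the length, Klf10 stood at 23.0 (ES IP), 23.1 (JL IP) and 17.5 (input) CPM per kilobase and Klf9 at 60.3 (JL IP) and 32.4 (input). Without Cldn5 and Cdh5 in the marker sum the ratio of Klf4 between ES and JL IPs was 1.99. Leaving out 1 library in turn, 5 to 6, 4 and 4 to 6 of the 6 genes were called in JL IP against input, ES against JL IP and ES IP against input, with 11477 to 13701, 7969 to 9904 and 6730 to 11332 genes called in all. Named genes outside the 6 were rerun under these alternatives after the data were seen. Where a printed call of such a gene changed or its printed fold moved by over 1.5 times, that stands beside it. List counts were rerun with library totals alone and with upper quartile scaling, and not every list count that changed is printed. Low counts limit Klf2, Klf4, Nos3 and Nos2 in input, and also Ctla2b, Hrct1 and Cdkn2b among the nearest profiles.

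With a replicate block, which pairs libraries by number, 12431, 9303 and 8651 genes were called in the same order, beside 12859, 9381 and 9126 without it, and 6, 4 and 5 of the 6 genes, as without it. The deviations of same-numbered libraries correlated at 0.05, 0.03 and 0.05 between JL IP and input, where each library correlated best with its own number, at 0.05, -0.02 and 0.01 between the IPs, and at 0.02, 0.01 and 0.01 between ES IP and input, and only JL IP and input of 1 number also share a lane number. The block changed no call of the 6 genes.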

Other observations

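Of 19 other Klf and Sp genes, 10 were higher in JL IP than in input and 5 lower (median log2 fold change 0.84, beside -0.09 over all genes). That is 78.9% of the list, near the 74.1% of all genes that changed. With library totals alone or upper quartile scaling 7 were lower, and 89.5% of the list changed. Klf11 stood at 112 ± 7.10 CPM against 11.0 ± 0.798 (3.35 ± 0.10, adjusted p = 1.16e-08, edgeR) and Klf3, which represses transcription, at 286 ± 37.4 against 43.6 ± 2.89 (2.71 ± 0.11). Klf5, Klf7, Klf12 and Klf13 were higher by 2.05, 1.11, 0.84 and 0.89, and Sp1, Sp2 and Sp3 by 1.95, 1.40 and 1.37. Sp4, a factor of neurons, was lower (-0.81 ± 0.12), and Klf16 did not pass (-0.23 ± 0.13, adjusted p = 0.145, edgeR). Klf16 was called lower with library totals alone (-0.49, adjusted p = 0.00761, edgeR) and with upper quartile scaling (-0.48, adjusted p = 0.00949). The highest and lowest of the list were Sp5 (3.95) and Sp9 (-2.57). Between investigators, 5 of the 19 were higher in ES IP, Klf16 at 1.73 ± 0.18 among them, and 8 lower, Klf11 at -1.82 ± 0.17 and Klf3 at -1.70 ± 0.17 among them. So 68.4% of the list changed, beside 57.9% of all genes.

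Genes of the nitric oxide receptor and of cGMP signalling were mostly lower in JL IP than in input, unlike Nos3. Of these 8 genes, 1 was higher and 5 lower, with a median of -1.31. With TMM scaling that is 75% of the list, near the 74.1% of all genes that changed, and 37.4% of all genes were lower. With library totals alone or upper quartile scaling 6 were lower, and 87.5% of the list changed. The higher gene was Pde5a, a phosphodiesterase that breaks down cGMP (2.22 ± 0.17), and the lowest was Gucy1a2, a subunit of the nitric oxide receptor (-3.00 ± 0.10). In ES IP 3 of the 8 were higher than in JL IP, Gucy1a2 at 2.49 ± 0.24 among them, and 1 lower, Pde5a at -1.43 ± 0.19. So 50% of the list changed there, beside 57.9% of all genes.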
